A study of Mus musculus with 30 samples.

Results

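The genes described here encode the nuclear-coded part of the oxidative phosphorylation (OXPHOS) machinery of the mitochondrion. They were taken from the array's gene annotation by symbol, as every gene whose symbol begins with Nduf, Sdha to Sdhd, Uqcr, Cox4, Cox5, Cox6, Cox7, Cox8 or Atp5. This gave 94 of the 18194 genes that have a probe set of their own on the array, and each gene was followed on 1 probe set, the one with the highest mean over all cells. By the textbook role of their products, 81 of the 94 are structural subunits (34 of complex I, 4 of complex II, 8 of complex III, 18 of complex IV including 8 tissue isoforms, and 17 of complex V), 12 are assembly factors and 1, Cox7a2l, is a factor that joins respiratory complexes into larger assemblies.

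Each of the 30 arrays measured the amplified cDNA of 1 primordial germ cell (PGC), a founder cell of the germ line, picked by capillary from the base of the allantois of C57BL/6 embryos at embryonic day (E) 7.25 to E7.5 and kept because Prdm1 was detected by PCR. All embryos came from crosses of Prdm14+/- mice, and PCR genotyping sorted the cells into wild type (WT, 13 cells), Prdm14+/- (13 cells) and Prdm14 KO (Prdm14-/-, 4 cells). The array codes in the labels mark 3 runs, of which run 1 held 10 WT cells, run 2 held 3 WT and 7 Prdm14+/- cells, and run 3 held 6 Prdm14+/- and 4 Prdm14 KO cells, so that WT and Prdm14 KO cells never shared a run. PRDM14 is a regulator of germ cell fate and epigenetic reprogramming, and the comparison of labels asks which transcripts differ when its gene is mutated. The labels do not tie cells to embryos, so the cells of a label cannot be taken as separate animals, each label counts as 1 sample, no test was run, and every SD below describes the spread between cells.

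Oxidative phosphorylation turns the energy of nutrients into ATP at the inner mitochondrial membrane. Complex I takes electrons from NADH and complex II, which is also an enzyme of the citrate cycle, takes them from succinate. Complex III passes them to cytochrome c, complex IV hands them to oxygen, and complex V, the ATP synthase, uses the proton gradient built by complexes I, III and IV to make ATP. Most subunits are encoded in the nucleus and a few in mitochondrial DNA, so that the machinery is built from both genomes, and several subunits of complex IV have tissue isoforms made from separate genes.

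The deposited values were log2 model-based expression indices (MBEI), in which 58.9% to 69.6% of the probe sets of a cell (mean 63.7%) were listed at exactly 0. Values below a floor of 6 on the log2 scale (64 MBEI) were set to 6 for means, SDs and differences, and a value listed at 0 was not read as absence of the transcript. The Prdm14 transcript itself went against the labels, since the mean of its deposited values, not floored and with zeros included, was 11.40 in the 4 cells labelled Prdm14 KO, 9.23 in those labelled Prdm14+/- and 4.17 in those labelled WT (median 0), so every direction below is between labels as deposited. The position of this probe set relative to the deletion was not analysed here. Prdm1 read 7.83 to 12.27 in the 30 cells, while Dppa3, a germ cell marker, was listed at 0 in some WT and Prdm14+/- cells. The mean of its deposited values was 12.55 in Prdm14 KO, 9.17 in Prdm14+/- and 8.28 in WT cells. The paper reports the opposite direction, with less Dppa3 in Prdm14 KO cells by microarray and PCR. The germ cell markers also moved with the labels, with 6 of 8 higher by 1 or more in the Prdm14 KO than in the Prdm14+/- cells (against 6.81% of all genes), and the mean of the list was 11.58 to 11.78 in the KO cells, 6.95 to 11.71 in the Prdm14+/- cells and 8.28 to 11.47 in the WT cells. The mean of 12 somatic mesoderm markers was 8.44 to 10.02, 7.94 to 10.10 and 8.54 to 9.95 in the same order. The array's control probe set at the 5′ end of Gapdh had means of 13.10, 12.77 and 12.54 in WT, Prdm14+/- and Prdm14 KO cells. The part of either in the differences below was not tested.

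Transcripts of the OXPHOS subunits were detected in nearly every cell. Of the 94 genes, 67 (71.3%) lay above the floor in all 30 cells, against 9.4% of all genes. All 8 genes of complex III and all 4 of complex II were in this set, as were 16 of 17 of complex V, 28 of 34 of complex I and 9 of the 10 ubiquitous genes of complex IV. The exceptions among the ubiquitous subunits were few. They were Atp5md of complex V, Ndufa1, Ndufa8, Ndufb1, Ndufb4, Ndufs8 and Ndufv2 of complex I, and Cox7c of complex IV. For Ndufb4 and Cox7c the probe sets hardly measured at all, being above the floor in 0 and 3 cells, and a second Ndufb4 probe set that its annotation shares with Ndufb4b and Ndufb4c read 10.96 to 12.79 in all 30 cells. In contrast, 1 of 12 assembly factors, Sdhaf4, and none of the 8 tissue isoforms passed the floor in every cell.

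**Figure D1:**
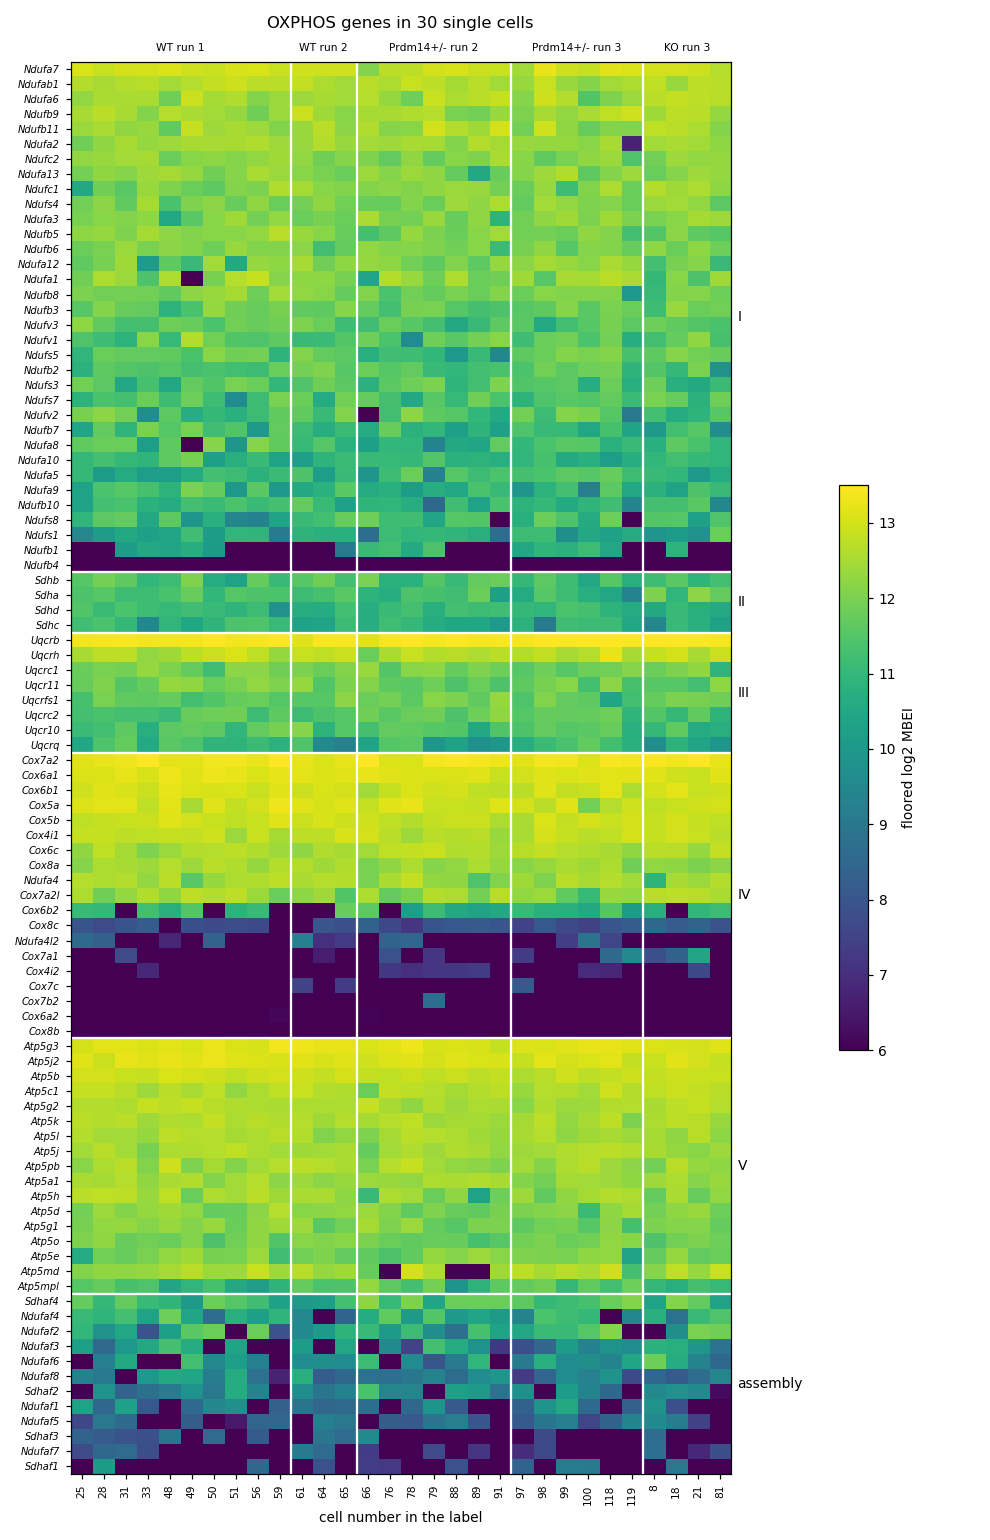
Floored log2 MBEI (colour, from the floor upwards) of the 94 OXPHOS genes (rows, ordered by complex and mean level) in the 30 cells (columns, by label and array run, named by the cell number of the label). Complexes I, II, III and V are bright in nearly all cells, the tissue isoforms at the foot of complex IV and the assembly factors are broken up, and the dark squares of Atp5md lie in 3 Prdm14+/- cells of run 2.

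The gene medians over the 30 cells ran from 10.86 to 11.31 in complex II, from 10.84 to 13.43 in complex III and from 11.32 to 13.12 in complex V. Probe sets differ in their response, so no order of the complexes or of the genes is read from these levels. Among the catalytic subunits, the flavoprotein Sdha of complex II, which oxidises succinate, read 9.37 to 12.20 with a median of 11.31, and its iron-sulphur partner Sdhb read 10.36 to 12.06. The Rieske iron-sulphur protein Uqcrfs1 of complex III had a median of 11.70 and the core proteins Uqcrc1 and Uqcrc2 of 11.92 and 11.58. In complex V the catalytic beta subunit Atp5b read 12.58 to 13.06, the alpha subunit Atp5a1 11.94 to 12.67 and the rotating gamma subunit Atp5c1 11.81 to 12.97. Of the complex I core, Ndufv1, which binds NADH, read 9.64 to 12.64 and Ndufs1, which carries iron-sulphur clusters, 8.67 to 11.80, while Ndufs3 and Ndufs7 had medians of 11.50 and 11.42. In complex IV, Cox4i1, Cox5a and Cox5b, nuclear-coded subunits around the catalytic core, had medians of 12.78, 13.01 and 12.87.

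The spread between cells was small for most of the 67 genes that were above the floor throughout. Their SD over the 30 cells lay below 0.5 for 50 genes (74.6%, against 34.6% of the 1711 genes above the floor in all cells) and below 0.3 for 26 (38.8%, against 14.8%). The median SD was 0.18 in complex IV, 0.22 in complex V, 0.34 in complex III, 0.44 in complex I and 0.51 in complex II, and 0.64 over all 1711 genes. The genes with the smallest SD of their complex were Cox6a1, a ubiquitous subunit of complex IV (12.88 to 13.31, SD 0.10), Atp5b (SD 0.11), Uqcrb, a small subunit of complex III (13.14 to 13.67, SD 0.12), Ndufab1, the mitochondrial acyl carrier protein in complex I (12.12 to 12.92, SD 0.19), and Sdhd, a membrane anchor of complex II (9.79 to 11.47, SD 0.35). The most variable in each complex were Ndufa2 (SD 1.05), the other anchor Sdhc (9.09 to 11.42, SD 0.59), Uqcrq (9.28 to 11.73, SD 0.70), Ndufa4 (10.89 to 12.80, SD 0.43) and Atp5h (10.34 to 12.78, SD 0.55).

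Much of this steadiness went with the level. The SD fell with the mean for all genes on these arrays, and within bands of equal mean the OXPHOS genes stood nearer to the rest. Between 10 and 11, the median SD was 0.61 for 9 OXPHOS genes and 0.78 for all 576 genes, with all 9 below that value. Between 11 and 12 it was 0.46 for 21 genes against 0.56, with 16 of 21 below. Between 12 and 13 it was 0.27 for 32 genes against 0.29, with 19 of 32 below. Between 13 and 14, where the 5 OXPHOS genes were Atp5g3, Atp5j2, Cox6a1, Cox7a2 and Uqcrb, their median SD of 0.12 was above the 0.09 of all genes there. The median correlation of pairs over the 30 cells, which share 3 runs, was 0.05 for the 67 genes, against 0.01 for pairs of all 1711 genes. Within complexes I to V it was 0.03, 0.01, 0.01, 0.07 and 0.13. With the means of each label and run removed, it was 0.05 for the 67 genes and 0.01 for all 1711. Within complexes I to V it was then 0.04, 0.09, 0.01, 0.01 and 0.11.

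**Figure D2:**
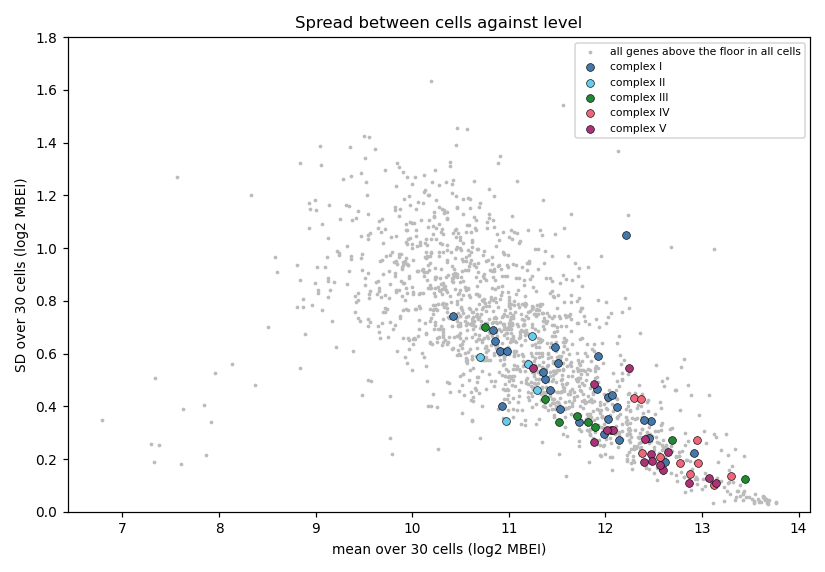
SD over the 30 cells against mean over the 30 cells (both log2 MBEI) for the 1711 genes above the floor in all cells (grey) and the 67 OXPHOS genes among them (coloured by complex, with assembly and supercomplex factors under their complex). The SD falls with the mean, and Ndufa2 (mean 12.21, SD 1.05) has the highest SD of the 67.

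Few values at or below the floor were found among the genes with high levels, and they fell in different cells. Among the 75 genes with a median of at least 10, 20 of 2250 values (0.889%) were at or below the floor. This compares with 3.09% of the values of all 2615 genes with such a median. The 20 values lay in 16 cells and in 8 genes (10.7%, against 40.7% of the 2615 genes). Beyond the limit of 10 the sets were not matched for level. Cox6b2 accounted for 7 of these 20, Atp5md and the assembly factor Ndufaf2 for 3 each, Ndufs8 and Ndufaf4 for 2 each, and Ndufa1, Ndufa8 and Ndufv2 for 1 each. Ndufv2, a core subunit that holds an iron-sulphur cluster, was listed at 0 in Prdm14+/- cell 66 and read 9.02 to 12.21 in the other 29 cells. Its other 2 probe sets were listed at 0 in the same cell. Ndufs8, a core subunit that carries iron-sulphur clusters, read 4.86 in Prdm14+/- cell 91 and 5.41 in Prdm14+/- cell 119, and was 9.30 or more elsewhere. In both cells the 4 other Ndufs8 probe sets with a median above the floor were at or below it too. Cell 66 had the highest share of probe sets at 0 of all cells (69.6%) and the lowest 3′ beta-actin control (9.99). The share at 0 was 68.8% in cell 91 and 65.7% in cell 119. The part of array quality was not tested. In all, 5 of the 20 values belonged to genes with another probe set whose median was above the floor, and in all 5 the other probe sets were low in the same cell, although probe sets of 1 gene can share probes.

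Cells 49, 64, 76 and 119 each held 2 of these values at once. In WT cell 49 Ndufa8 was listed at 0 (9.37 or more in the other cells). Ndufa1, a small membrane subunit, read 3.78 there (10.44 or more in the other cells). Cell 49 was the lowest WT cell for the 5′ Gapdh (12.50) and 3′ beta-actin (10.90) controls. The 5′ Gapdh control read 13.39 in cell 64 and 12.84 in cell 76. Prdm14+/- cell 119 stood apart more broadly. Its OXPHOS score, the mean over the 81 structural genes, was 10.94, the lowest of the 30 cells (mean 11.28 ± 0.12 SD, highest 11.54), and its complex I score was 10.77 where the next lowest was 11.14. In this cell Ndufa2 read 6.73, against 11.87 to 12.63 in the other 29, Sdha read 9.37 and Ndufv2 9.02, both the lowest measured values of their gene among the cells above 0, and Ndufb1 and Ndufaf2 were listed at 0. The same cell was not low in the array controls, with 13.24 for the 5′ Gapdh probe set, and it had 65.7% of its probe sets at 0. Its mean over the 1711 genes above the floor in all cells was 10.99, second lowest of the 30 cells (10.96 to 11.27). For comparisons below with the Prdm14+/- cells of run 3 on either side, the scores, gene counts and genes named by rule were also calculated without it. Values that draw on these cells only through the run as a block were not.

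In the isoform pairs of complex IV the ubiquitous form was above the floor in every cell and the tissue form was not. The ubiquitous Cox6b1 read 12.46 to 13.21 in all 30 cells. Cox6b2, known as the testis form, was either listed at 0 (7 cells) or read 10.08 to 11.76 (23 cells), with no value between. It was above the floor in 8 of 13 WT, 12 of 13 Prdm14+/- and 3 of 4 Prdm14 KO cells. Cox8c, another testis form, passed the floor in 27 of 30 cells at values up to 8.53, whereas Cox8a was at 11.88 to 12.72 in every cell and Cox8b, the heart and muscle form, was listed at 0 in all 30. The heart and muscle form Cox7a1 passed the floor in 10 cells (2 of 13 WT, 5 of 13 Prdm14+/- and 3 of 4 Prdm14 KO cells) and its ubiquitous counterpart Cox7a2 read 13.06 to 13.52 throughout. Cox4i2, the lung form, passed it in 9 cells, of which 7 were Prdm14+/-, at no more than 7.62, and Cox4i1 read 12.35 to 13.04. Ndufa4l2, a paralogue of Ndufa4 known to respond to hypoxia, passed it in 12 cells (7 WT, 5 Prdm14+/- and 0 of 4 Prdm14 KO). Cox6a2 and Cox7b2 were above it in 2 and 1 cells. Ndufb1, a small subunit of complex I, was also divided, with 14 cells listed at 0 and 16 at 9.04 to 11.41. The 3 genes for the membrane ring of the ATP synthase, Atp5g1, Atp5g2 and Atp5g3, encode the same mature protein and were all above the floor in every cell, with SDs of 0.31, 0.16 and 0.11.

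The 250 bases before the transcription start of Cox6b1 and Cox6b2, and of Atp5md and Ndufs5, whose differences between cells are described further on, are shown to set the promoters of an even and 3 uneven genes side by side. They are RefSeq sequences on build GRCm38.p6, written 5′ to 3′ on the strand of the gene, and capitals mark the motifs found on either strand. The motifs searched were the core of the NRF1 motif, TGCGCA, which reads the same on both strands. The others were an ETS-type motif, CCGGAAG, the CCAAT box, which is its own letters, and the TATA box, searched as TATAAA. No motif overlapped another in these windows.
Cox6b1, chr7:30626115-30626364, minus strand: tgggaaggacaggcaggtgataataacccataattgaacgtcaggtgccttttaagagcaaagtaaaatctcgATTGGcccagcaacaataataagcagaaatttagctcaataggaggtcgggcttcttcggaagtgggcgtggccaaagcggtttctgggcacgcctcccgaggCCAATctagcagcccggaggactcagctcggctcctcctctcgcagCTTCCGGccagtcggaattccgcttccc
Cox6b2, chr7:4753095-4753344, minus strand: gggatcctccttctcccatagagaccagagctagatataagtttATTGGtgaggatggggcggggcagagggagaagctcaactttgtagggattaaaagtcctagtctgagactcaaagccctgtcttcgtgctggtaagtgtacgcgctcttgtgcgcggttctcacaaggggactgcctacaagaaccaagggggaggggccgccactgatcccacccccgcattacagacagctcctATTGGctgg
Atp5md, chr19:47090648-47090897, minus strand: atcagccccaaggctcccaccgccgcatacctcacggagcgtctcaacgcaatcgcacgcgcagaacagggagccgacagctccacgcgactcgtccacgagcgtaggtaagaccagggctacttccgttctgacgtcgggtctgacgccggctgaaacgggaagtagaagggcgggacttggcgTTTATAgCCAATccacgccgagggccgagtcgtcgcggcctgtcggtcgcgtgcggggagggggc
Ndufs5, chr4:123718187-123718436, minus strand: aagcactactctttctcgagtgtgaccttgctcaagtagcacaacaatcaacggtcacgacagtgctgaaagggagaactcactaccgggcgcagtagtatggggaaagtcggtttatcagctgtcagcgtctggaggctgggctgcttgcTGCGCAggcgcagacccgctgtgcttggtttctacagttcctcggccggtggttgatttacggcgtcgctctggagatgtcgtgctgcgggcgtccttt
The Cox6b1 window held 1 ETS-type motif and 2 CCAAT boxes, the Cox6b2 window 2 CCAAT boxes, the Atp5md window a TATA box beside a CCAAT box, and the Ndufs5 window 1 NRF1 core. NRF1 and the ETS factor GABP (NRF2) are known regulators of respiratory chain genes.

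RefSeq windows were matched for 78 of the 94 genes, and Atp5a1, Atp5mpl, Cox4i1, Cox4i2, Cox6a2, Cox6c, Cox8c, Ndufa2, Ndufa4l2, Ndufaf6, Ndufb9, Ndufs1, Sdhc, Uqcrb, Uqcrc2 and Uqcrq had none. The NRF1 core was found upstream of 16 of the 78 genes (20.5%) against 7.36% of 27025 genes of all kinds, and the ETS-type motif upstream of 16 (20.5%) against 7.83%. The CCAAT box was found for 42.3% against 37.5% and the TATA box for 8.97% against 14.3%. The 56 genes above the floor in all cells and the 22 others held the NRF1 core in 23.2% and 13.6% and the ETS-type motif in 21.4% and 18.2%. The median GC share of the windows was 57.6% for the 78 genes and 52.4% for all genes, and its part in these motif counts was not tested. These counts describe letters in a window and not binding.

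At the level of whole complexes the labels and runs differed by little. The OXPHOS score was 11.30 ± 0.07 (SD, 13 cells) in WT, 11.26 ± 0.16 (13 cells) in Prdm14+/- and 11.27 ± 0.11 (4 cells) in Prdm14 KO cells. The difference of Prdm14+/- minus WT was -0.04 (pooled SD between cells 0.13), or -0.10 with the run as a block. That of Prdm14 KO minus WT was -0.03 (pooled SD 0.08), which became -0.14 with the run as a block. Only run 2 held both WT and Prdm14+/- cells, so the block value of Prdm14+/- minus WT is the difference within run 2. That of Prdm14 KO minus WT adds to it the difference of Prdm14 KO minus Prdm14+/- within run 3. The block value of Prdm14 KO minus WT was not recalculated without Prdm14+/- cell 119. Within run 3 the OXPHOS score difference was -0.0421, and -0.1165 to 0.0045 over other processing choices and left-out cells. For complex I it was -0.0348, and -0.1697 to 0.0591 over the same alternatives. Of 42 differences, for the OXPHOS score and the 5 complexes in 7 comparisons, 7 reached 1 pooled SD. These concerned complexes III and V. With the scores limited to genes above the floor in all cells, others also reached 1 pooled SD, namely the OXPHOS score within run 2 (-0.10, pooled SD 0.065), complex I within run 2 (-0.13, pooled SD 0.065, the values of the labels not overlapping) and complex IV in Prdm14+/- minus WT (-0.084, pooled SD 0.081), within run 2 (-0.11, pooled SD 0.069) and in Prdm14 KO minus WT (-0.088, pooled SD 0.084). Over all 1711 such genes the mean differed by -0.05 within run 2. The complex III score was lower in the Prdm14 KO than in the WT cells (-0.16, pooled SD 0.15), than in all Prdm14+/- cells (-0.16, pooled SD 0.15) and than in those of run 3 (-0.17, pooled SD 0.16). With the run as a block the complex III difference to WT cells was -0.12. Over other processing choices it ranged from -0.25 to -0.02. The range was -0.22 to -0.10 against all Prdm14+/- cells and -0.27 to -0.05 within run 3. Of the complex III genes Uqcrq had the lowest difference to WT cells (-0.66, or 0.11 on its probe set without suffix). Uqcrfs1 (0.25) and Uqcrb (0.10) were higher in the Prdm14 KO cells. A complex III score without Uqcrq was not made. The complex V score was lower in Prdm14 KO than in WT cells by a difference of -0.09 (pooled SD 0.08), or -0.31 with the run as a block and -0.16 with the block but without Atp5md. The complex V score was lower in Prdm14+/- than in WT cells (-0.18, pooled SD 0.16), also within run 2 (-0.29, pooled SD 0.22), where Atp5md was listed at 0 in 3 cells. Without Atp5md the same differences were -0.10 and -0.13. The cells labelled Prdm14+/- in run 3 exceeded those in run 2 by 0.21 (pooled SD 0.20) for complex V, and by 0.05 without Atp5md.

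**Figure D3:**
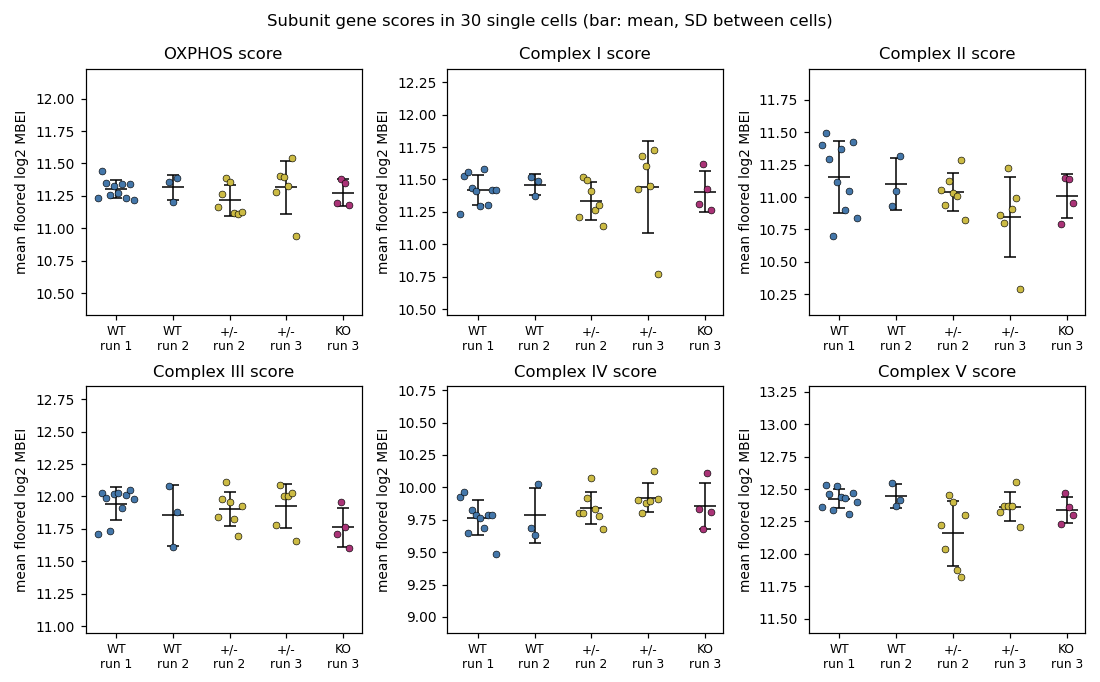
OXPHOS score and scores of complexes I to V, each the mean floored log2 MBEI over its genes, for the 30 cells (points) by label and array run, with the mean and SD between cells (bars). Panels share an axis span of 1.9 but not its centre, and the groups overlap in every panel, with Prdm14+/- cell 119 lowest for the OXPHOS score and for complexes I and II.

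Single genes were counted as different where the means of 2 labels or runs differed by 1 or more on the log2 scale, a 2-fold difference of floored values. Between Prdm14+/- and WT cells 2 of the 94 genes were higher (2.13%, against 2.42% of all 18194 genes) and 2 lower (2.13%, against 1.95%), so the OXPHOS genes were counted about as often as the rest. The genes were Ndufb1 (1.48, pooled SD 2.28) and Cox6b2 (1.22, pooled SD 2.10) on the higher side, and Atp5md (-1.47, pooled SD 2.03) and the complex II assembly factor Sdhaf3 (-1.26) on the lower, each of them listed at 0 in some cells. The differences of the first 3 were smaller than their spread between cells, and that of Sdhaf3 was not (pooled SD 1.13). With the run as a block 4 genes were higher and 7 lower, which are the counts within run 2 given below. Sdhaf4, another assembly factor of complex II (0.56, pooled SD 0.59), and Atp5h, the stalk subunit d of the ATP synthase (-0.49, pooled SD 0.52), were the outermost of the genes above the floor in all cells, and Ndufaf1 was lower by a difference of -0.50 (pooled SD 1.48). Of these 67 genes, 66 lay within 0.5 of 0 (98.5%, against 89.6% of all 1711). The 2 sets were not matched for level, with which the spread falls.

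Within run 2, the only run with both labels, 4 genes were higher (4.26%, against 6.02% of all genes) and 7 lower (7.45%, against 8.3%) in 7 Prdm14+/- than in 3 WT cells. Without WT cell 61 the lower genes numbered 3. Ndufaf4, an assembly factor of complex I, had the highest difference, at 10.07 to 11.66 in the Prdm14+/- cells and 9.52, 0 and 8.42 in WT cells 61, 64 and 65 (difference 2.66, pooled SD 1.07). The values of the labels did not overlap, which was so for 0.225% of all genes on the higher side. The 10 WT cells of run 1 read 8.68 to 11.84, and WT cells of run 2 lay below those of run 1 by 2.66. The second Ndufaf4 probe set gave 0.03 within run 2, and the average over both gave 1.34. Atp5o, the subunit that links the stalk to the catalytic head, read 11.32 to 12.01 in the Prdm14+/- cells. In the WT cells it read 12.17, 12.09 and 12.16 (difference -0.45, pooled SD 0.19). With Ndufs5 it made up the 2 genes lower without overlap (2.13%, against 0.621% of all genes). Among genes above the floor in all cells these shares were 2.99% and 1.64%.

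Ndufs5, a small accessory subunit of complex I, was lowest in the Prdm14+/- cells of run 2. Its values there were 9.50 to 11.20 with a median of 10.98. They were 12.07, 11.70 and 11.61 in the WT cells of the same run (difference -1.13, pooled SD 0.58), 11.33 to 12.10 in the Prdm14+/- cells of run 3 and 11.64 to 12.15 in the 4 Prdm14 KO cells. These groups did not overlap with the first. The 10 WT cells of run 1, at 10.87 to 12.16, did overlap. Between the Prdm14+/- cells of run 3 and run 2, which carry the same label, the difference was 1.16 (pooled SD 0.53). In that direction 0.0275% of all genes were separated, and 0.117% of those above the floor in all cells. A probe set shared by Ndufs5 and its pseudogene copy Ndufs5-ps had a median of 11.47 in the Prdm14+/- cells of run 2 (10.66 to 11.73), 11.85 in the WT cells of run 2 (11.84 to 12.13) and 12.05 in the Prdm14+/- cells of run 3 (11.52 to 12.23). The 5′ Gapdh control was 12.65 in the Prdm14+/- cells of run 2, 13.29 in the WT cells of run 2 and 12.90 in the Prdm14+/- cells of run 3, and its part was not tested.

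Atp5md, a small membrane subunit of the ATP synthase also known as DAPIT, was either above 11 or listed at 0. It was listed at 0 in Prdm14+/- cells 76, 88 and 89, all of run 2, and read 11.75, 12.98, 12.57 and 12.42 in Prdm14+/- cells 66, 78, 79 and 91 of that run. The other 23 cells read 11.29 to 12.93, so that 27 of 30 cells had a measured value. The difference within run 2 was -2.80 (pooled SD 2.99), that between Prdm14+/- cells of run 3 and run 2 was 2.78 (pooled SD 2.58), and both depend on the floor at which the 3 values were set. With medians over cells the Prdm14+/- minus WT difference was 0.08. The gene has 1 probe set, so no second reading of these zeros was at hand.

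The Prdm14 KO cells were first compared with the Prdm14+/- cells, which share run 3. Over all Prdm14+/- cells 3 of 94 genes were higher (3.19%, against 6.81% of all genes) and 1 lower (1.06%, against 3.7%). The lower genes numbered 3 without Prdm14 KO cell 8, 21 or 81 and 2 without cell 18. Within run 3 the counts were 2 higher (2.13%, against 8.6%) and 3 lower (3.19%, against 5.62%). They became 1 higher and 6 lower without Prdm14+/- cell 119, and 5 genes were higher without Prdm14 KO cell 81. Ndufb1 had the lowest difference, being listed at 0 in KO cells 8, 21 and 81 and at 10.85 in KO cell 18, against 5 of 6 Prdm14+/- cells above the floor (difference -2.76, pooled SD 2.15). Ndufaf1, an assembly factor of complex I, differed by -1.18 (pooled SD 1.68) and Cox6b2 by -1.09 (pooled SD 1.56), the latter through KO cell 18 alone, without which the value was 0.14. Ndufa2 differed by 1.03 (pooled SD 1.81), and by 0.09 without Prdm14+/- cell 119.

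Sdha was higher in the Prdm14 KO cells, at 12.03, 10.93, 12.20 and 11.69 in cells 8, 18, 21 and 81, than in the 6 Prdm14+/- cells of run 3, at 9.37 to 11.55 with a median of 10.67 (difference 1.06, pooled SD 0.68). The ranges overlapped. Averaged over its 4 probe sets the difference was 0.28, and the second measured probe set gave 0.07. The ranges of 3 genes did not overlap. Ndufa5, an accessory subunit of the peripheral arm of complex I, read 11.07, 10.97, 10.04 and 10.62 in KO cells 8, 18, 21 and 81 and 11.15 to 11.76 in the Prdm14+/- cells of run 3 (difference -0.78, pooled SD 0.34), and its second probe set gave -0.97. Ndufa12, an accessory subunit of the same arm, read 11.26, 11.97, 12.14 and 11.06 against 12.17 to 12.55 (difference -0.73, pooled SD 0.34), and -0.69 and -0.80 on its other 2 measured probe sets. Cox7a2l, the supercomplex factor, read 12.70, 12.75, 12.70 and 12.53 against 11.03 to 12.37 (difference 0.67, pooled SD 0.43), and 0.80 and 0.77 on its other 2. The shares of all genes without overlap were 0.566% on the higher and 0.192% on the lower side, and those of the OXPHOS genes 1.06% and 2.13%. Most genes of the array were at the floor in some cells. Among genes above the floor in all cells the shares were 1.46% and 0.643%, and 1.49% and 2.99% for the OXPHOS genes. None of the 3 was separated from WT cells, since WT cells of run 1 read 10.15 to 11.26 for Ndufa5, 10.16 to 12.47 for Ndufa12 and 11.82 to 12.75 for Cox7a2l.

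Prdm14 KO and WT cells shared no run, and label and run cannot be told apart there except through the Prdm14+/- cells. Of the 94 genes 3 were higher (3.19%, against 7.9% of all genes) and 2 lower (2.13%, against 4.32%), and 5 and 6 with the run as a block. Without Prdm14 KO cell 21 or 81 the lower genes numbered 1. The values of the labels overlapped for all 94 genes, and 0.17% of all genes were higher and 0.055% lower without overlap. Cox7a1 had the highest difference, with 7.84, 8.32 and 10.43 in KO cells 8, 18 and 21 and a value listed at 0 in KO cell 81, against 2 of 13 WT cells above the floor, at 7.71 and 6.61 (difference 1.97, pooled SD 0.93, and 1.15 with the run as a block). This difference depended on the floor, being 3.16 with a floor of 4 and 0.69 with a floor of 8. The assembly factors Ndufaf6 (1.39, pooled SD 1.86) and Ndufaf3 (1.13, pooled SD 1.95) followed, and the Ndufaf6 value turned to -0.71 with the run as a block. The 2 lower genes were Ndufaf1 (-1.14, pooled SD 1.46) and Ndufa4l2 (-1.05). Uqcrq, a small subunit of complex III (-0.66, pooled SD 0.71), and Ndufb7 of complex I (-0.60, pooled SD 0.67) were lowest among the genes above the floor in all cells, and Uqcrq turned to 0.11 on its probe set without suffix. Of the 67 genes above the floor in all cells 63 lay within 0.5, against 75.6% of all 1711.

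**Figure D4:**
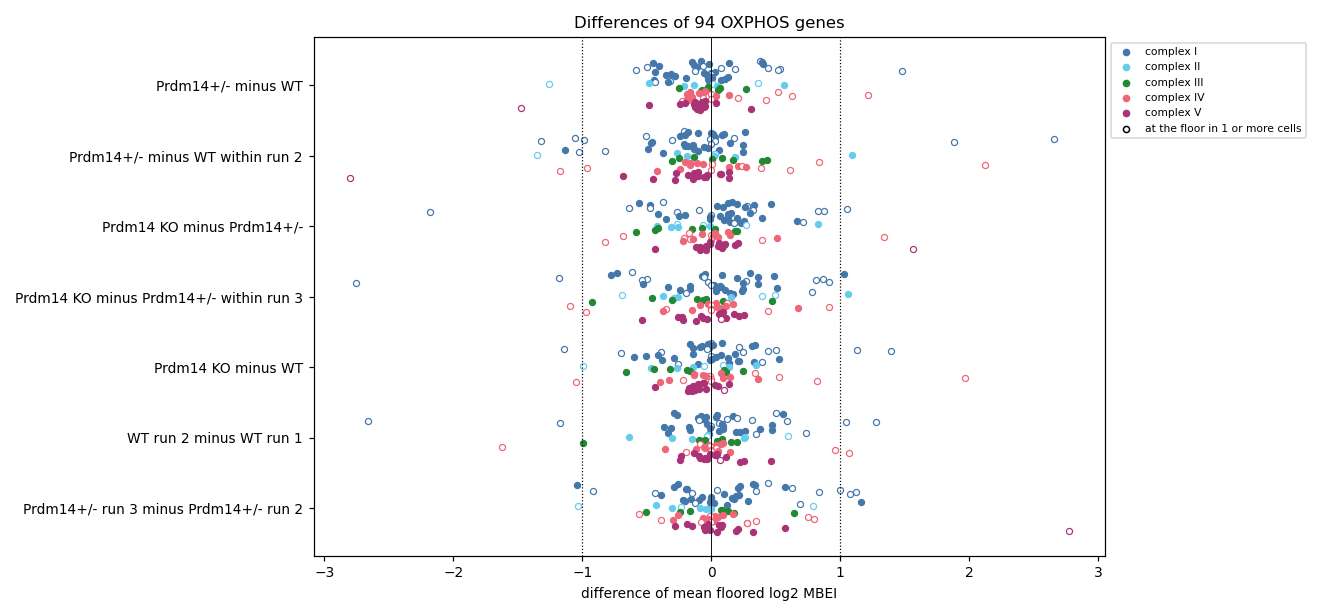
Difference of mean floored log2 MBEI for each of the 94 OXPHOS genes (points, coloured by complex) in the 7 comparisons, filled where the gene was above the floor in all 30 cells and open where it was at the floor in 1 or more. Dotted lines mark differences of 1, and most points beyond them are open.

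Runs of 1 label served as a measure of how far such counts move without a change of label. Between WT cells of run 2 and run 1, 3 genes were higher (3.19%, against 7.36% of all genes) and 3 lower (3.19%, against 4.58%; 1 without WT cell 64), among them Ndufaf4 (-2.66), Cox6b2 (-1.62) and Ndufb1 (-1.17) on the lower side and Ndufaf6 (1.28) on the higher. Ndufs8 (0.73, pooled SD 0.82) and the complex II assembly factor Sdhaf2 (0.60, pooled SD 1.42) were the other outermost genes. Between Prdm14+/- cells of run 3 and run 2, 5 were higher (5.32%, against 5.16% of all genes) and 2 lower (2.13%, against 4.45%; 0 without cell 119), with Ndufaf6 (1.12) beside Atp5md and Ndufs5 on the higher side, and Ndufa2 (-1.04, or -0.11 without cell 119) and Sdhaf2 (-1.03) on the lower. Ndufaf4 did not reach 1 there (-0.92). These comparisons share cells with those between labels.

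**Figure D5:**
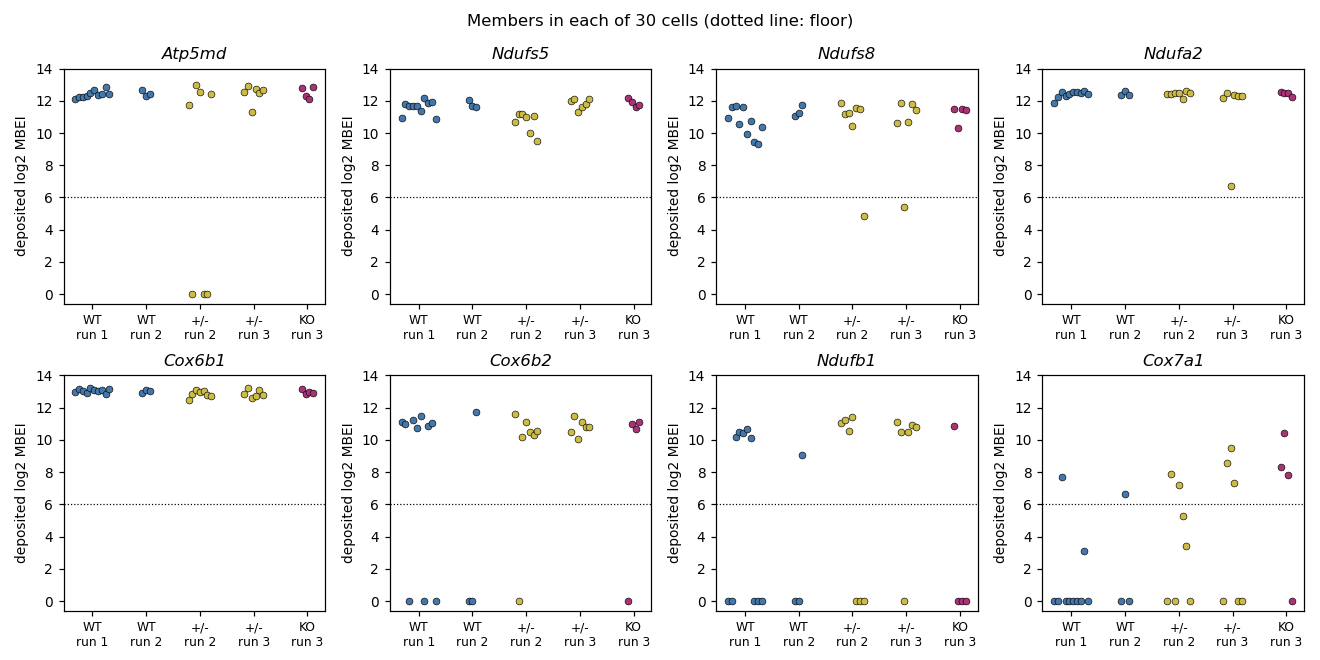
Deposited log2 MBEI of 8 OXPHOS genes in each of the 30 cells (points), by label and array run, with the floor of 6 as a dotted line. Cox6b1 is even, Atp5md, Cox6b2, Ndufb1 and Cox7a1 fall to values listed at 0, Ndufs5 is lowest in the Prdm14+/- cells of run 2, and Ndufa2 and Ndufs8 drop in single cells.

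Other genes of mitochondrial energy metabolism were measured on the same arrays. Of 8 further respiratory chain subunits and carriers, cytochrome c (Cycs) read 11.42 to 13.44, the complex III subunit Cyc1 11.34 to 12.35 and the ATP synthase inhibitor Atpif1 12.25 to 13.11 in all cells, and 1 of the 8 was higher and 0 lower by 1 in Prdm14 KO than in WT cells. Over all genes 7.9% were higher and 4.32% lower in that comparison, 6.81% and 3.7% in Prdm14 KO minus Prdm14+/-, and 8.6% and 5.62% within run 3. The only mitochondrially encoded subunit with a symbol here, ND5 of complex I, read 11.46 to 12.83. It was higher in Prdm14 KO cells by 0.46 than in WT cells, by 0.25 than in Prdm14+/- cells and by 0.17 within run 3. Of 16 genes of the citrate cycle and pyruvate entry, 0 differed by 1 between Prdm14 KO and WT or between Prdm14+/- and WT cells. In Prdm14 KO minus Prdm14+/-, 0 of them were higher and 1 lower, and within run 3, 2 were higher and 1 lower. Within run 2, 1 was higher and 1 lower in Prdm14+/- than in WT cells, against 6.02% and 8.3% of all genes. Malate dehydrogenase Mdh2 read 12.13 to 12.92 throughout. Of 23 assembly factors outside the symbol rule, 3 were higher and 2 lower in Prdm14 KO than in WT cells, 6 higher and 4 lower in Prdm14 KO than in Prdm14+/- cells, and 6 higher and 3 lower within run 3. Of 12 genes that maintain and transcribe mitochondrial DNA 1 was higher and 1 lower in Prdm14 KO than in WT cells. In Prdm14 KO minus Prdm14+/- the counts were 0 higher and 2 lower, and within run 3 they were 2 higher and 1 lower. Among 10 nuclear regulators of respiratory genes 0 differed by 1 between Prdm14 KO and WT cells. Compared with Prdm14+/- cells, 0 regulators were higher and 1 lower in Prdm14 KO cells, and 1 was higher and 2 lower within run 3. Pprc1 and Yy1 were above the floor in every cell, and the co-activators Ppargc1a and Ppargc1b, known from brown fat and muscle, in 0 of 30.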

How the data were processed

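Single cells were measured on a commercial whole-genome mouse expression array, 1 array per cell. The deposited table holds log2 MBEI values of 45101 probe sets, which per the labels the authors made with dChip 1.3 under the PM/MM difference model. How arrays were scaled to each other was not stated. The platform annotation gave 1 symbol for 34958 probe sets, several for 932 and none here for 9211. A gene was read on its probe set with the highest mean. Values were floored at 6, a score was the mean over the structural genes, means of cells were compared, and the run was added as a block by least squares. A difference of 1 or more was counted. Named by rule were the smallest and largest SD of each complex, the 3 highest and 3 lowest differences of each comparison among genes whose higher mean reached 8, the isoform families and the core subunits. Genes with values at the floor, genes without overlap and other genes past 1 were named after their values were seen. Genes and lists were chosen with earlier results of these data known. Alternatives were other floors, scalings, probe sets, medians and left-out cells. The calculation was tested on simulated data. No 2 arrays held identical values, and the number of arrays limits the precision. Python 3.11.15, NumPy 2.4.6 and pandas 2.3.3 were used.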

Additional observations from a re-analysis of the deposited data

Results flagged for a closer look

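In 96 checks, each of 1 score or named gene within 1 group of 4 to 10 cells, 17 had 1 cell set apart from the rest. The same score or gene could count in several groups. This was judged by its gap to the nearest cell as a share of the group's range. The limits used mark about 1 in 20 for normally distributed values. Values here were floored, and the genes were named for their differences in these same cells, so the 17 cannot be set against that rate. Prdm14+/- cell 119 was the lowest of the 6 Prdm14+/- cells of run 3 in 5 of them. The shares were 0.686 for the complex I score (10.77, next 11.43), 0.941 for Ndufa2, 0.728 for Atp5md (11.29, next 12.49), 0.873 for Ndufb1 and 0.790 for Ndufs8. In the same group cell 118 was highest for the complex IV score (share 0.667, at 10.13 with the next at 9.91).

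Among the Prdm14+/- cells of run 2, cell 76 was lowest for Cox6b2 (share 0.744) and cell 91 for Ndufs8 (share 0.755). Among the 4 Prdm14 KO cells, cell 18 was lowest for Cox6b2 (share 0.914) and highest for Ndufb1 (share 1.0), cell 21 lowest for Ndufs8 (share 0.927, at 10.29 with the next at 11.42) and cell 81 lowest for Sdhaf2 (share 0.926, at 6.23 with the next at 9.54). Among the WT cells of run 1, cell 59 was lowest for the assembly factor score (share 0.485, at 7.39 with the next at 8.36), cell 49 for Atp5h (share 0.557, at 11.78 with the next at 12.34), cell 25 for Ndufa2 (share 0.541, at 11.87 with the next at 12.27) and cell 50 for Ndufaf4 (share 0.503, at 8.68 with the next at 10.27), and cell 31 was highest for Cox7a1 (share 1.0). The causes were not tested.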

How the results depend on the processing

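Of 574 alternative values for 49 score differences, 564 stayed within 1 pooled SD of the reported value without a called sign turning, as did 428 of 444 for the named genes, whereas 49 of 148 alternative counts moved by over 1.5 times. The sign differed from the reported one in 83 of the 574 score values. With only the genes above the floor in all cells, the complex IV score differences turned from 0.11 to -0.084 (Prdm14+/- minus WT), from 0.058 to -0.114 (within run 2) and from 0.088 to -0.088 (Prdm14 KO minus WT). The assembly factor score, then Sdhaf4 alone, gave 0.56, 1.09 within run 2, -0.42 (Prdm14 KO minus Prdm14+/-) and -0.63 (WT runs). With the run as a block, Prdm14 KO minus WT was -0.14 for the OXPHOS score, -0.16 for complex I and -0.31 for complex V, and Ndufaf6 turned to -0.71. Uqcrq there turned to 0.11 with probe sets without suffix, and Cox7a1 was 3.16 and 0.69 with floors of 4 and 8. With medians over cells, Atp5md in Prdm14+/- minus WT turned to 0.081, Cox6b2 there to -0.31 and Cox6b2 for Prdm14 KO minus Prdm14+/- within run 3 to 0.043. The last ranged from -1.57 to 0.14 with 1 KO cell left out, the highest without cell 18.

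Floors of 4 and 8 on the log2 scale were tried in place of 6. For Prdm14+/- minus WT, 5 genes were higher with a floor of 4 and 1 with a floor of 8 or medians. In the same comparison 1 was lower with a floor of 8, medians or the mean over probe sets. The block, which here is the comparison within run 2, gave 4 higher and 7 lower. Within run 2 the lower genes numbered 2 (floor of 8) and 4 (medians), and 3 to 7 with 1 WT cell left out. For Prdm14 KO minus Prdm14+/-, 1 was higher (floor of 8), and 4 (floor of 4), 2 (medians) and 3 (block, the count within run 3) were lower. With 1 KO cell left out 2 to 3 were lower. Within run 3, 5 higher and 6 lower were counted at a floor of 4, 1 and 1 at a floor of 8, 1 higher with quantile normalization, equal medians or the mean over probe sets, 2 to 5 higher with 1 KO cell left out, and 1 higher and 6 lower without Prdm14+/- cell 119, a setting chosen after seeing the data. For Prdm14 KO minus WT, 4 were lower at a floor of 4, 0 higher and 0 lower at a floor of 8, 5 higher and 6 lower with the block, and 1 to 3 lower with 1 KO cell left out. Between WT runs, 0 higher and 1 lower were counted at a floor of 8, 5 higher with probe sets without suffix, and 1 to 4 lower with 1 WT cell of run 2 left out. Between Prdm14+/- runs, 8 higher and 4 lower were counted at a floor of 4, 2 and 0 at a floor of 8, 1 and 1 with medians, 1 lower with quantile normalization or the mean over probe sets, and 0 lower without cell 119. The cause was not tested.

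No paired analysis was possible because the cell numbers are not shared between labels and no test was run.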
